A study of Homo sapiens with 30 samples.

Results

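The genes analyzed here were those of major histocompatibility complex (MHC) class I and class II antigen presentation, namely HLA-B, HLA-C, HLA-E, HLA-F and B2M for class I and HLA-DRA, HLA-DPA1, HLA-DMA and CD74 for class II. They are 9 of 30484 gene names on the array, and all probes annotated with any of them were taken, which gave 18 probes of 41000, with 12 for class I and 6 for class II. HLA-B, HLA-C, HLA-E and HLA-F each encode a class I heavy chain. The question was how strongly 5 breast cancer cell lines express them without treatment and how their expression moves after bone morphogenetic protein 7 (BMP7), a growth factor of the TGF-beta superfamily.

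Class I molecules are found on nearly all nucleated cells, where a heavy chain pairs with beta-2-microglobulin, the product of B2M, and shows peptides made inside the cell to CD8+ T cells and natural killer cells. Class II molecules are pairs of an alpha and a beta chain that show peptides from taken-up proteins to CD4+ T cells. They are mainly made by B cells, macrophages and dendritic cells, and other cells can be induced to make them by interferon gamma through the coactivator CIITA.

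HCC1954, MDA-MB-231, MDA-MB-361, T-47D and ZR-75-30 cells were each given vehicle or recombinant human BMP7 (50 ng/ml) for 30 min or for 1, 3, 6, 12 or 24 h, once they had adhered for 24 h. According to the methods, MDA-MB-231 was grown with 1% and T-47D with 5% serum, the others under recommended conditions, so cell line and serum cannot be told apart, and all 5 lines were picked for making little BMP7 of their own. For every cell line and time point, 1 two-colour Agilent array set BMP7-treated cells (Cy5) against vehicle-treated cells (Cy3), with 3 cultures pooled in each sample. No array was repeated and no dyes were swapped, so a single value has no replicate, and any fixed dye bias stays in each ratio.

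Over the 30 arrays, the median share of probes measured well above background with both dyes was 63.2% (53.9% to 68.4%). The vehicle channel of every array correlated best with the other arrays of its own line, although least so for MDA-MB-231 at 6 h and T-47D at 3 h and 24 h. The arrays lay on 13 slides, and 6 of them were scanned later than the others (HCC1954, MDA-MB-231 and ZR-75-30 at 30 min, MDA-MB-231 and ZR-75-30 at 6 h, and T-47D at 3 h). The keratin genes KRT8, KRT18 and KRT19 were above background on all arrays. ESR1, the estrogen receptor gene, had its highest mean vehicle levels in MDA-MB-361, T-47D and ZR-75-30, ERBB2 in MDA-MB-361, ZR-75-30 and HCC1954, and VIM, a mesenchymal gene, in MDA-MB-231.

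To show the shared layout of the control regions, the 180 bases ahead of the transcription start of 6 of the genes are given from RefSeq on GRCh38.p14, 5′ to 3′ on the strand of the gene. Capitals mark 4 searched motifs on either strand: GGGGATTC, the start of the NF-kB element of class I promoters, GAAANNGAA, a core of the interferon-stimulated response element, TGACG, a core of the X2 box bound by CREB-type factors, and ATTGG, the core of the Y box (a reversed CCAAT box) bound by NF-Y. Of the 9 genes, 7 had an entry in the promoter table, and HLA-DPA1, with 2 start sites there, is not shown.
HLA-B (chr6:31357180-31357359, minus strand): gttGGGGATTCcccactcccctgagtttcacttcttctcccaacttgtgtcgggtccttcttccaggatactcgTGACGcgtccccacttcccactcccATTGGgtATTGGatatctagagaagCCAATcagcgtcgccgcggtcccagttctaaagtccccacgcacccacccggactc
HLA-C (chr6:31272093-31272272, minus strand): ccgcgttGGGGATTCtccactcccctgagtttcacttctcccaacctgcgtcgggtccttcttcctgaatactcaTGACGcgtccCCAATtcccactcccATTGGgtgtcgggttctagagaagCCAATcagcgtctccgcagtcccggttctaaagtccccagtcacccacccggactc
HLA-F (chr6:29723254-29723433, plus strand): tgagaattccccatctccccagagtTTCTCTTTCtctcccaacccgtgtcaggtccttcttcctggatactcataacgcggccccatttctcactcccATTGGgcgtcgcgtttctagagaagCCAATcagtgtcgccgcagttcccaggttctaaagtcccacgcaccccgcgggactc
B2M (chr15:44711337-44711516, plus strand): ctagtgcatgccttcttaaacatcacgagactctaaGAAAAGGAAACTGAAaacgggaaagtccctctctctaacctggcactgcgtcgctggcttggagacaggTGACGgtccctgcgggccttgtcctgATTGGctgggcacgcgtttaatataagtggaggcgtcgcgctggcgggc
HLA-DMA (chr6:32953098-32953277, minus strand): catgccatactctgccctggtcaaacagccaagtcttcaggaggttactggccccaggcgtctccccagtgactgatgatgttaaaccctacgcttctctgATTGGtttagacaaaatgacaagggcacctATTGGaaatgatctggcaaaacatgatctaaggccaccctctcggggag
CD74 (chr5:150412911-150413090, minus strand): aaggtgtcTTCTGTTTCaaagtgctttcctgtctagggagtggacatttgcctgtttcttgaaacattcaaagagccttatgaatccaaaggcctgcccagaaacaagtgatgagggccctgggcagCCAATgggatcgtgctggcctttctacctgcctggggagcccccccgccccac
ATTGG or its reverse complement was found in 6 of these 6 stretches and in 26.2% of 35116 promoter stretches of the same length. TGACG was found in HLA-B, HLA-C and B2M and in 17.3% of all stretches. GGGGATTC was found in HLA-B and HLA-C only among the 6, and in 0.57% of all stretches. GAAANNGAA was found in HLA-F, in CD74 and, at 2 overlapping places, in B2M, and in 4.88% of all stretches. No other matches overlapped. These matches describe letters, and binding was not measured. Only exact strings were searched, so a stretch without a mark, as in HLA-B and HLA-C for GAAANNGAA, may still hold a variant of that element.

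The probes lie on chromosome 6 in the MHC, apart from those of B2M on chromosome 15 and CD74 on chromosome 5 (coordinates from the file headers' build, hg18). A gene with several probes was read from the probe with the highest mean vehicle signal. For HLA-C this was A_23_P113716 (6:31429768-31429819), which the array annotates as HLA-C but which lies about where the HLA-B probes do (A_24_P113674, 6:31430895-31430954), as does a further HLA-C probe, A_23_P95917 (6:31430871-31430936). The other HLA-C probes were A_24_P298409 (6:31344612-31344671) and A_23_P70539 (6:31347078-31347387). The coordinates of A_23_P95917 and A_24_P113674 overlap, so their values may not be separate signals. Class I heavy chain genes are near-identical over long stretches, and cross-hybridization between them was not tested. Values for HLA-B, HLA-C, HLA-E and HLA-F are therefore uncertain as to the gene. In the log2 ratios of BMP7 over vehicle, HLA-E probe A_23_P30848 had a Pearson correlation of 0.97 with HLA-C probe A_23_P70539. With the other HLA-E probes it had 0.89 (A_24_P326082) and 0.73 (A_32_P460973). The HLA-C and B2M probes A_23_P113716 and A_23_P37441 were each printed at 10 spots, and the SD of the log2 ratio over those spots within an array had a median of 0.06 for HLA-C and 0.05 for B2M.

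All 12 class I probes were well above background in the vehicle channel on 30 of 30 arrays, whereas the class II genes were mostly dim. HLA-DMA (A_24_P50245) was above background on 30 arrays, HLA-DRA and HLA-DPA1 (A_23_P30913) on 11 arrays each, and CD74 on 5. Vehicle levels are given as log2 signal after each array was set to a common 75th percentile, with the 6 time points of a line standing in for replicates. Their spread is thus one of time points and of pooled samples. In bulk samples, fewer cells making a transcript and less transcript per cell cannot be told apart.

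The vehicle level differed between the lines for 18 of 18 member probes (limma F test, adjusted p from 6.57e-14 to 3.60e-05), against 79.6% of all probes. Each line was then compared with the mean of the other 4. In MDA-MB-231, 15 of the 18 probes were higher and 0 lower, where 24.4% of all probes were higher and 24.4% lower. In ZR-75-30, 17 were lower and 0 higher, where 20% of all probes were lower and 22% higher. MDA-MB-361 had 12 lower and 1 higher (24.6% and 24.5% of all probes), T-47D 9 higher and 1 lower (36.2% and 20.7%), and HCC1954 3 higher and 1 lower (19.1% and 33.3%). The median difference over all probes in these contrasts was 0.34 in T-47D, -0.33 in HCC1954 and -0.12 in MDA-MB-231 on the log2 scale, and 0.01 and 0.02 in MDA-MB-361 and ZR-75-30. Some lower calls rest on signals near background. The lower probe in HCC1954 (CD74) and in T-47D (HLA-DPA1, A_23_P30913) was above background on 0 of 6 arrays there. In MDA-MB-361 and ZR-75-30 the lower probes include HLA-DRA, HLA-DPA1 (A_23_P30913) and CD74, each above background on 0 or 1 of 6 arrays.

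B2M, the shared light chain of class I molecules, was lowest in MDA-MB-361. Its vehicle log2 level there was 12.14 at the lowest, 12.20 at the median and 12.33 at the highest of 6 arrays, for a mean of 12.21 ± 0.08 (SD, n = 6). In ZR-75-30 the corresponding values were 13.48, 13.66 and 14.11, and in T-47D 13.71, 13.94 and 14.07. In HCC1954 they were 14.17, 14.35 and 14.62, and in MDA-MB-231 14.39, 14.98 and 16.81. The MDA-MB-361 arrays lay below every array of the other lines, ZR-75-30 overlapped with T-47D, and HCC1954 overlapped with MDA-MB-231. In MDA-MB-361, B2M was lower than in the mean of the other lines by 4.22-fold (log2 difference -2.08, SE 0.19, limma adjusted p = 7.69e-11). B2M was higher in MDA-MB-231 (1.61, SE 0.19, limma adjusted p = 1.16e-08) and in HCC1954 (0.62, SE 0.19, limma adjusted p = 0.00681).

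**Figure D1:**
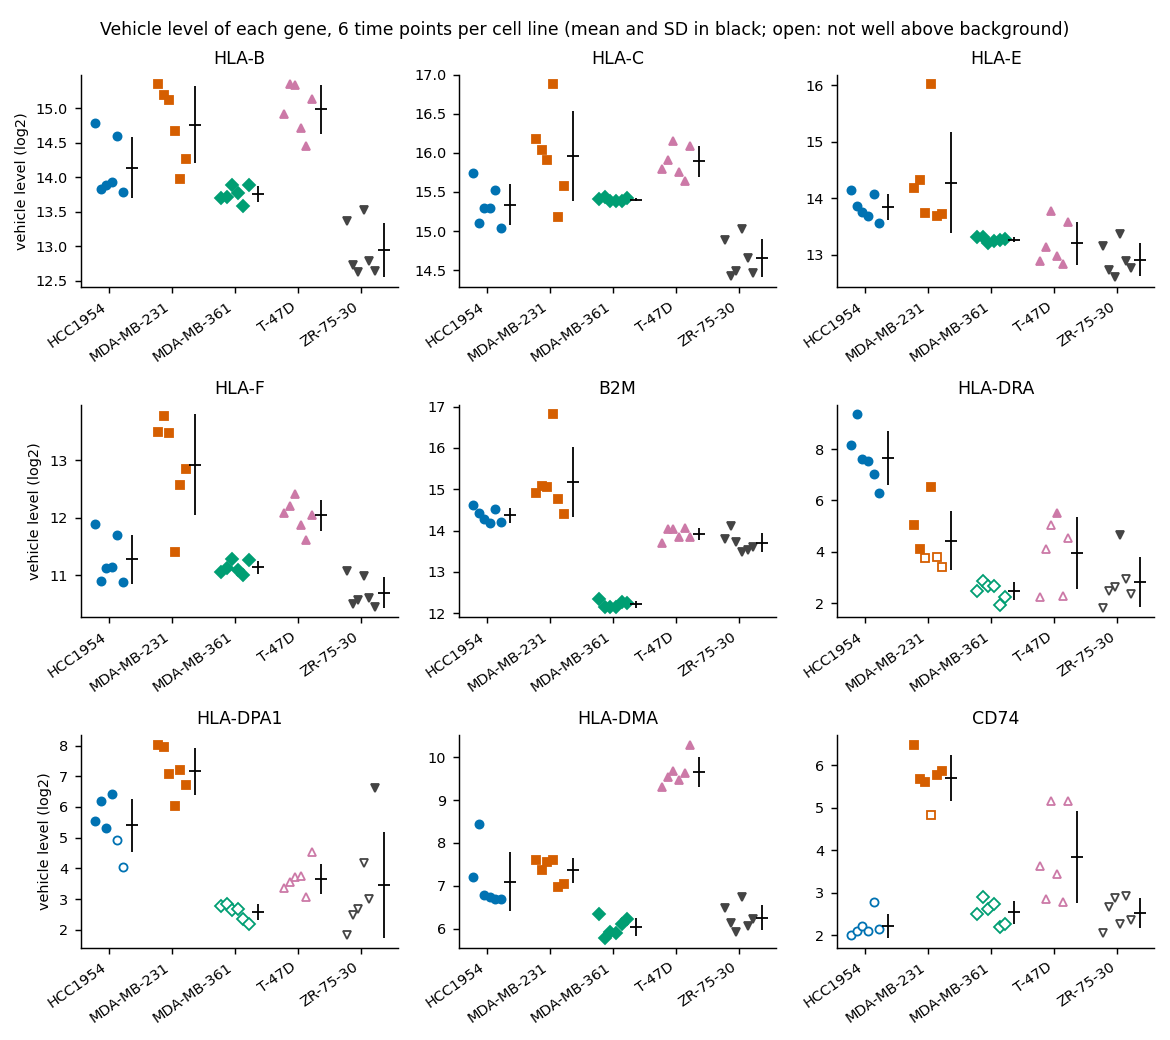
Vehicle log2 level (vertical axes) of the 9 genes in 5 cell lines, with 1 point per time point from 30 min (left) to 24 h (right) and the mean and SD of the 6 points in black. Open points were not well above background. B2M in MDA-MB-361 (12.14 to 12.33) lies below all other lines, and HLA-DMA in T-47D (9.30 to 10.29) above them. Levels of different genes come from different probes and cannot be compared.

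The classical heavy chain gene HLA-B was lowest in ZR-75-30, with 12.63 at the lowest, 12.76 at the median and 13.53 at the highest array. It reached 13.58, 13.75 and 13.89 in MDA-MB-361, 13.78, 13.91 and 14.79 in HCC1954, and 13.98, 14.90 and 15.35 in MDA-MB-231. The highest values were 14.46, 15.03 and 15.34 in T-47D. ZR-75-30 was apart from all other lines, whereas each further pair of neighbours in this order overlapped. HLA-B was lower in ZR-75-30 than in the mean of the others by 2.76-fold (-1.47, SE 0.18, limma adjusted p = 1.07e-07), and higher in T-47D (1.08, SE 0.18, limma adjusted p = 1.22e-05) and MDA-MB-231 (0.81, SE 0.18, limma adjusted p = 0.000441).

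HLA-C (A_23_P113716) was likewise lowest in ZR-75-30 (mean 14.66 ± 0.25, SD, n = 6), and its 6 arrays there did not overlap with those of the other lines. HCC1954 (15.34 ± 0.26) and MDA-MB-361 (15.40 ± 0.02) overlapped, as did T-47D (15.89 ± 0.20) and MDA-MB-231 (15.96 ± 0.57). HLA-E, a nonclassical class I gene whose product is seen by natural killer cell receptors, was also lowest in ZR-75-30 (12.91 ± 0.29), where it overlapped with T-47D (13.20 ± 0.39) and MDA-MB-361 (13.27 ± 0.04). HCC1954 (13.85 ± 0.23) and MDA-MB-231 (14.28 ± 0.89) were the higher lines for HLA-E and overlapped. HLA-F, another nonclassical gene, was highest in MDA-MB-231, with 11.40 at the lowest, 13.16 at the median and 13.77 at the highest array. It was higher there by 3.12-fold than in the mean of the other lines (1.64, SE 0.21, limma adjusted p = 9.48e-08), although each pair of neighbouring lines overlapped. HLA-E was also higher in MDA-MB-231 than in the mean of the others, by 0.97, which was 0.62 (limma adjusted p = 0.000718) without the 6 h arrays, and B2M then gave 1.26.

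The probes of a gene did not always rank the lines alike. For HLA-C in MDA-MB-361, A_24_P298409 was higher than in the mean of the others (0.49, SE 0.17, limma adjusted p = 0.0193), whereas A_23_P113716 and A_23_P70539 did not pass (-0.06 for both, SE 0.15 and 0.17). For HLA-E in T-47D, A_23_P30848 was higher (0.55, SE 0.17, limma adjusted p = 0.00676), and the brighter A_32_P460973 gave -0.38 (SE 0.21, limma adjusted p = 0.123).

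Among the class II genes, HLA-DRA, the invariant alpha chain of HLA-DR, was above background on all 6 arrays of HCC1954 and of no other line. Its vehicle level there was 8.14, 9.35, 7.63, 7.52, 7.02 and 6.28 from 30 min to 24 h. In MDA-MB-231 it was above background on 3 arrays, in T-47D and ZR-75-30 on 1 each and in MDA-MB-361 on 0. HCC1954 at 24 h (6.28) lay below MDA-MB-231 at 6 h (6.50), and its other arrays lay above all arrays of the other lines. Set against the lowest signals above background in MDA-MB-361, HLA-DRA was at least 4.09-fold higher in HCC1954, a bound from both channels after normexp, loess and Aquantile normalization that is open to dye bias. In the fit, HCC1954 was above the mean of the others (limma adjusted p = 3.14e-09).

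HLA-DPA1, the alpha chain of HLA-DP, was above background on 6 of 6 arrays in MDA-MB-231 and on 4 in HCC1954. Its vehicle levels in MDA-MB-231 were 8.03, 7.96, 7.08, 6.02, 7.19 and 6.71 from 30 min to 24 h. By the same bound it was at least 3.07-fold higher there than in MDA-MB-361 and at least 2.64-fold higher than in T-47D (limma adjusted p = 3.59e-08 for MDA-MB-231 against the mean of the others). The second HLA-DPA1 probe, A_24_P243528, differed less. It was also above background on 6 of 6 arrays of MDA-MB-231 (5.18 ± 0.78, SD, n = 6) and higher there than in the mean of the others (limma adjusted p = 0.000257), by at least 1.32-fold against T-47D, but was above background on 4 arrays of MDA-MB-361 as well (4.68 ± 0.52), where the range of levels overlapped with MDA-MB-231. With A_23_P30913, ZR-75-30 had 1 array above background, at 24 h (6.61), and its other 5 arrays lay between 1.84 and 4.16. CD74, the invariant chain that guides class II molecules to the peptide loading compartment, was above background on 5 arrays, all of MDA-MB-231, where it was at least 1.57-fold to 1.74-fold higher than in each other line.

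HLA-DMA, a chain of the HLA-DM molecule that helps load peptides onto class II, was the class II gene measured on every array. Its vehicle level in T-47D was 9.30 at the lowest, 9.58 at the median and 10.29 at the highest array. The corresponding values were 6.96, 7.47 and 7.60 in MDA-MB-231 and 6.70, 6.77 and 8.44 in HCC1954. In ZR-75-30 they were 5.92, 6.18 and 6.74, and in MDA-MB-361 5.79, 6.02 and 6.35. T-47D lay above all other lines, and each further pair of neighbours overlapped. HLA-DMA was higher in T-47D than in the mean of the others by 7.79-fold (2.96, SE 0.18, limma adjusted p = 2.95e-14), and its other probe gave 3.28 (SE 0.26, limma adjusted p = 5.94e-12). HLA-DRA, HLA-DPA1 and CD74 in T-47D were above background on 1, 0 and 0 of 6 arrays.

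The class II genes thus differed in the line that held their highest level. Over 30 arrays, the Pearson correlation of vehicle levels among the 4 class II genes ranged from -0.04 to 0.60 over 6 pairs, and among HLA-B, HLA-C, HLA-E and HLA-F from 0.40 to 0.90 over 6 pairs. These arrays share cell lines, slides and the scaling to a common percentile. HLA-DRA, HLA-DPA1 and CD74 were above background on 11, 11 and 5 of them, and the class I probes on all 30. The 0.90 was that of HLA-B with A_23_P113716, the HLA-C probe that lies near the HLA-B probes. The ranges of the classes therefore cannot be set against each other. CIITA, which drives class II transcription, was above background on all 6 arrays of HCC1954 (mean 6.89 ± 0.98, SD, n = 6) and MDA-MB-231 (8.08 ± 0.78), on 1 array of T-47D and on 0 of MDA-MB-361 and ZR-75-30.

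On 1 HCC1954 array, that of vehicle for 1 h, several class II genes stood above the other time points, an array singled out after its values were seen. HLA-DRA was at 9.35 (6.28 to 8.14 on the other 5 arrays), HLA-DMA at 8.44 (6.70 to 7.20), HLA-DMB at 8.19 (5.52 to 5.92) and CIITA at 8.71 (6.15 to 7.25). The level of HLA-B there was 13.83, within the 13.78 to 14.79 of the other arrays. At least 2-fold above the median of the other 5 arrays were 3 of the 18 member probes and 3.49% of 40872 probes. The ratio to BMP7-treated cells at this time point was 0.06 for HLA-DRA and 0.03 for HLA-DMA, so that both channels were alike. Without replicates, time and sample cannot be told apart.

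**Figure D2:**
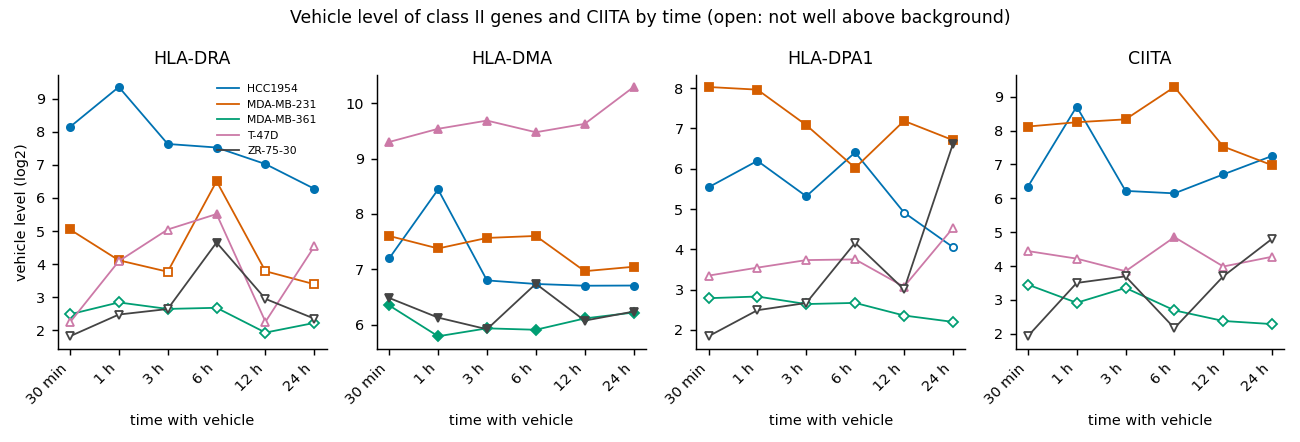
Vehicle log2 level (vertical axes) of HLA-DRA, HLA-DMA, HLA-DPA1 and CIITA against time with vehicle, with 1 line per cell line and open points where the signal was not well above background. Within HCC1954, HLA-DRA, HLA-DMA and CIITA were highest on the 1 h array at 9.35, 8.44 and 8.71. CIITA reached 9.29 in MDA-MB-231 at 6 h, HLA-DPA1 was highest in MDA-MB-231 (8.03 at 30 min), and HLA-DMA was highest in T-47D.

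Leukocytes are the main class II cells, so their markers were examined. Of 10 leukocyte markers, PTPRC (CD45) was above background on 2 arrays, MS4A1 (CD20) on 1 and LYZ on 0, whereas CD3E, CD79A, CD14 and ITGAM were above background on all 30. CSF1R was above background on 18 arrays and CD2 on 6. The summed signal of the list (log2) ranged from 10.08 to 13.49 in T-47D, 10.02 to 11.82 in HCC1954, 9.74 to 10.94 in MDA-MB-361, 10.24 to 11 in ZR-75-30 and 9.89 to 11.19 in MDA-MB-231. These ranges overlapped between all lines. The part of these markers in the class II levels was not tested.

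In the deposited ratios no class I probe changed 2-fold after BMP7 at any time. Of 540 member values (18 probes on 30 arrays), 3 were events, meaning a change of at least 2-fold, with 2 higher and 1 lower, where 0.908% of all probe values were higher and 0.957% lower. All 3 were of class II genes in spots not well above background in both channels. They were HLA-DRA in T-47D at 24 h (log2 ratio 1.16), HLA-DPA1 (A_24_P243528) in ZR-75-30 at 6 h (1.73) and CD74 in T-47D at 3 h (-1.17). Ratios of exactly 0 for dim class II probes on many arrays come from the surrogate signals that the software uses below background. With each line reduced to its mean ratio over 6 time points, 0 of 18 probes differed from 0 over the 5 lines (limma), where 0.00976% of all probes were higher and 0% lower. At an unadjusted p under 0.05, 2 members were higher and 1 lower, near the shares of all probes (3228 and 3096 of 41000). With median scaling in place of loess, 36 member values were events and 8 members passed in the mean ratio. The shares of all probes under that scaling are not given here, so these counts describe the processing and not the members.

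**Figure D3:**
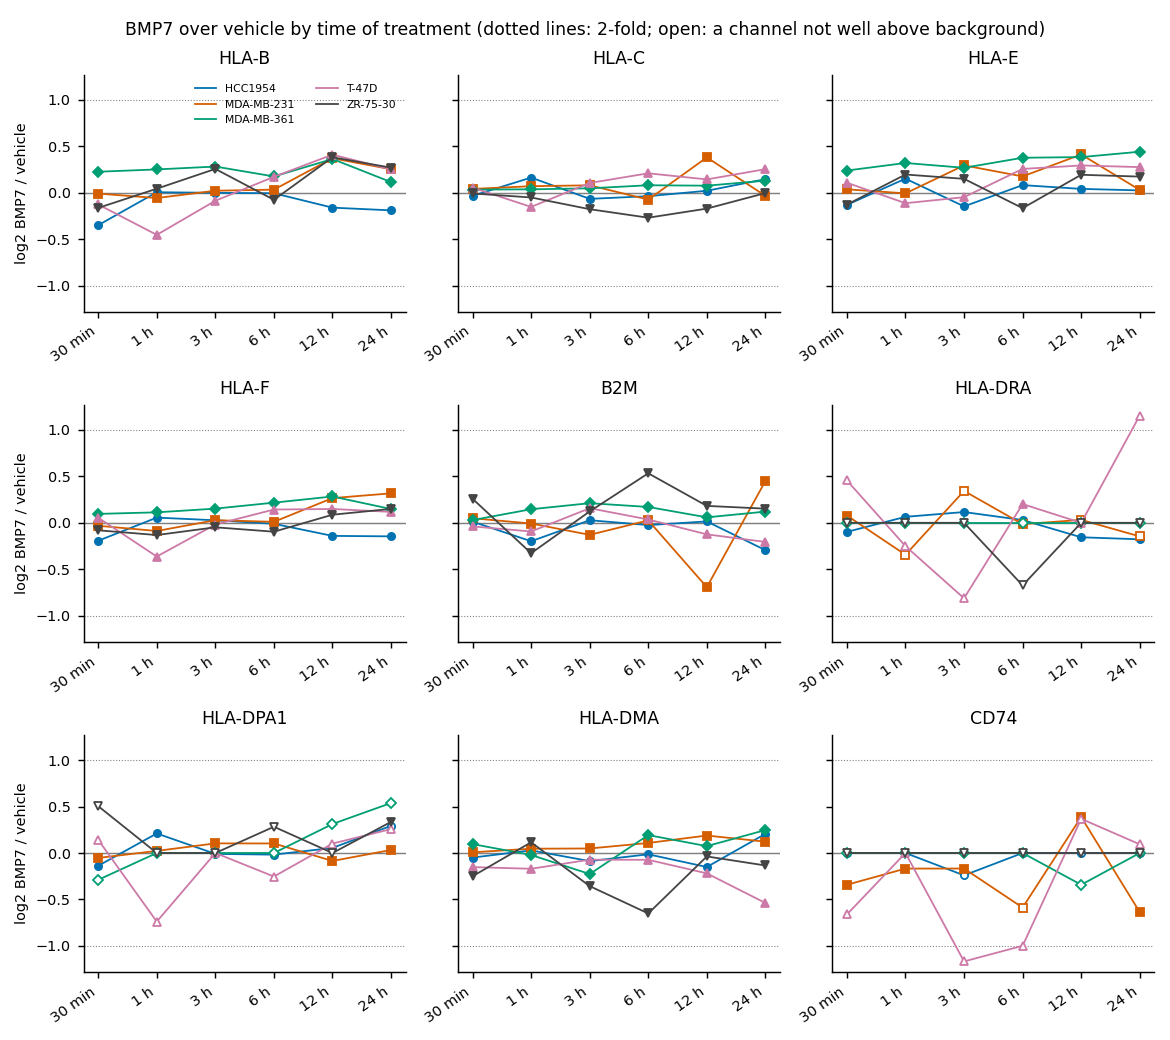
Log2 ratio of BMP7 over vehicle (vertical axes) against time of treatment for the 9 genes, with 1 line per cell line, dotted lines at 2-fold and open points where a channel was not well above background. Both late values of HLA-B lay above both early ones in T-47D, ZR-75-30 and MDA-MB-231, where only the change in T-47D passed the test, and the values past 2-fold were open points.

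Late and early time points were compared next. The change was taken as the mean ratio at 12 and 24 h minus that at 30 min and 1 h, in which a constant dye effect cancels. HLA-B (A_24_P113674) in T-47D had log2 ratios of -0.13, -0.45, -0.09, 0.17, 0.41 and 0.25 from 30 min to 24 h. In ZR-75-30 they were -0.16, 0.04, 0.25, -0.08, 0.38 and 0.27, and in MDA-MB-231 -0.01, -0.06, 0.02, 0.03, 0.37 and 0.25. In these 3 lines both late values were above both early values. In MDA-MB-361 the ratios were 0.22, 0.25, 0.28, 0.17, 0.36 and 0.11, and in HCC1954 -0.35, 0.0042, -0.0024, -0.0069, -0.16 and -0.19. In MDA-MB-361 all 6 were above 0 and in HCC1954 none of the late values was, with early and late values overlapping in both lines.

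Over the 5 lines, 5 of 18 member probes rose from early to late and 0 fell (limma, adjusted over all probes), where 2.17% of all probes rose and 0.799% fell. All 5 were class I heavy chain probes. Of the probes from which the class I genes were read, those of HLA-B and HLA-F were among them. Those of HLA-C, HLA-E and B2M were not. HLA-B (A_24_P113674) rose by 0.27 on the log2 scale (SE 0.06, limma adjusted p = 0.0323), HLA-E (A_23_P30848) by 0.35 (SE 0.07, limma adjusted p = 0.025) and HLA-F (A_23_P314024) by 0.18 (SE 0.05, limma adjusted p = 0.0444). Of the HLA-C probes, A_23_P70539 rose by 0.43 (SE 0.08, limma adjusted p = 0.0226) and A_23_P95917 by 0.31 (SE 0.07, limma adjusted p = 0.039). At an unadjusted p under 0.05, 10 of the 18 member probes were higher and 0 lower, against 4058 and 3132 of 40940 probes tested. The median over the 12 class I probes was 0.25, with 11 of 12 above 0, against -0.00071 over all probes tested and 0.05 over the 6 class II probes. With median scaling in place of loess the class I median over the lines was -0.13 and none of the 18 probes passed. Under that scaling HCC1954 was the line below 0, with a class I median of -1.18, against 0.21 in T-47D, 0.38 in MDA-MB-231, 0.0032 in ZR-75-30 and 0.0037 in MDA-MB-361. None passed with scan batch as a further term, with 1 difference per line as the unit of replication, or without MDA-MB-231, T-47D or ZR-75-30.

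Probes of the same gene differed in this change. The 2 other HLA-C probes gave 0.08 (A_23_P113716, SE 0.05) and 0.02 (A_24_P298409, SE 0.06), which did not pass. The second HLA-B probe gave 0.32 (SE 0.09, limma adjusted p = 0.0555) and the second HLA-F probe 0.41 (SE 0.11, limma adjusted p = 0.057). The other HLA-E probes gave 0.23 (SE 0.07) and 0.16 (SE 0.07), with limma adjusted p of 0.0931 and 0.206. B2M gave -0.02 (SE 0.11, limma adjusted p = 0.99), and its ratios over the arrays lay between -0.69 and 0.53, at 12 h in MDA-MB-231 and at 6 h in ZR-75-30. The correlation of ratios with B2M over 30 arrays was between -0.61 and 0.08 for the 4 heavy chain genes, which among themselves had 0.28 to 0.85. The arrays share lines, slides and scan batches.

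**Figure D4:**
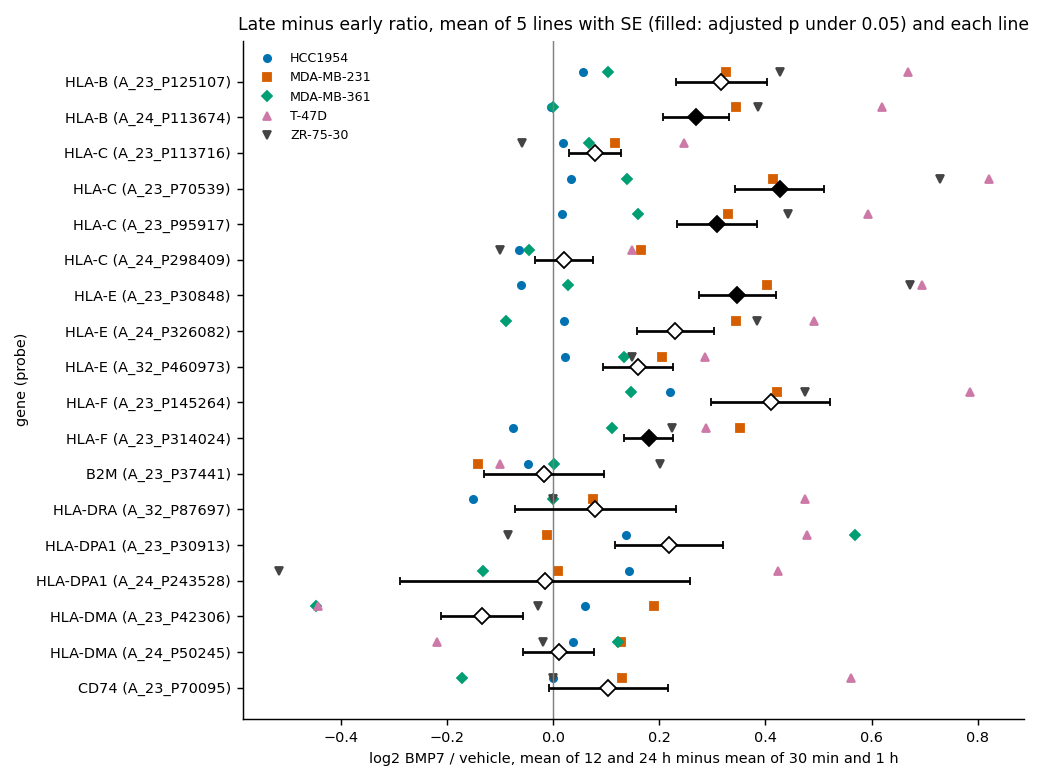
Late minus early log2 ratio of BMP7 over vehicle (horizontal axis) for the 18 probes (vertical axis), as the mean over 5 lines with its SE (diamonds, filled where the adjusted p passed) and as the value of each line above it. The filled diamonds are HLA-B, 2 HLA-C probes, HLA-E and HLA-F, at 0.18 to 0.43, and B2M lies at -0.02. The brightest probes of HLA-C and HLA-E, from which these genes were read, are open diamonds.

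By cell line, the median late minus early ratio over the 12 class I probes was 0.54 in T-47D, 0.39 in ZR-75-30 and 0.34 in MDA-MB-231, and it was 0.02 in HCC1954 and 0.09 in MDA-MB-361. In T-47D, 3 probes rose, namely HLA-B (A_24_P113674, 0.62, limma adjusted p = 0.0319), HLA-C (A_23_P70539, 0.82, limma adjusted p = 0.0331) and HLA-E (A_23_P30848, 0.69, limma adjusted p = 0.0348), where 1.58% of all probes rose, and 0 fell, where 1.02% of all probes fell. In each of the other 4 lines 0 members passed in limma. Of all probes, 0.449% rose and 0.39% fell in ZR-75-30, 0.0854% and 0.0464% in MDA-MB-231, 0.134% and 0.0757% in MDA-MB-361, and 0.0122% and 0.00732% in HCC1954. At an unadjusted p under 0.05, 7 members were higher in ZR-75-30, 5 in MDA-MB-231 and 0 in HCC1954, while MDA-MB-361 had 1 higher and 1 lower. Of all probes, 3344 of 40984 were higher by this threshold in ZR-75-30, 1188 of 40966 in MDA-MB-231 and 531 of 40997 in HCC1954. In MDA-MB-361, 943 of 40977 were higher and 1047 lower. The difference between lines itself passed for 0 of 18 probes (F test in limma, lowest adjusted p = 0.449 for HLA-E), where 0.139% of all probes passed. Its unadjusted p was under 0.05 for 3 members, against 2979 of 40940 probes. Without the arrays of MDA-MB-231 at 6 h and of T-47D at 3 h and 24 h, 0 probes passed in T-47D. With the series matrix values 0 class I probes passed in T-47D and 2 in ZR-75-30, and 2 also passed in ZR-75-30 with spots above background in both channels and 1 after normexp and loess.

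The median class I ratio over the 12 probes in T-47D was 0.02, -0.40, -0.05, 0.24, 0.39 and 0.29 from 30 min to 24 h. In ZR-75-30 it was -0.19, -0.04, 0.18, -0.09, 0.35 and 0.24, and in MDA-MB-231 -0.02, -0.01, 0.02, -0.0013, 0.37 and 0.25. The highest value fell at 12 h in these 3 lines. In MDA-MB-361 the medians were 0.21, 0.20, 0.22, 0.20, 0.35 and 0.15, also highest at 12 h, and in HCC1954 they were -0.32, 0.04, -0.02, -0.02, -0.04 and -0.17. HCC1954 at 30 min, the lowest of its line, was among the arrays of the later scan batch, as were ZR-75-30 and MDA-MB-231 at 30 min. That batch held no array at 12 or 24 h, so scan batch and time are partly confounded in the late-against-early change.

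The ratio has both channels in it, and each was followed. From early to late, the median vehicle change over the class I probes, averaged over lines, was -0.35, with all 12 probes below 0, and the median change in BMP7-treated cells was -0.11. The vehicle change passed for 0 of 18 members (limma), where 0.0122% of all probes fell and 0.00488% rose. Unadjusted p was under 0.05 for 6 members below 0 and 0 above, against 1191 and 1822 of 40968 probes. By line, the median class I change in vehicle and in BMP7-treated cells was -0.33 and 0.16 in T-47D, -0.33 and 0.04 in ZR-75-30, -0.90 and -0.59 in MDA-MB-231, -0.14 and -0.14 in HCC1954, and 0.03 and 0.10 in MDA-MB-361. In MDA-MB-231 the vehicle level of HLA-B was 15.35, 15.20, 15.12, 14.67, 13.98 and 14.26 from 30 min to 24 h. Both late values lay below all earlier ones there.

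**Figure D5:**
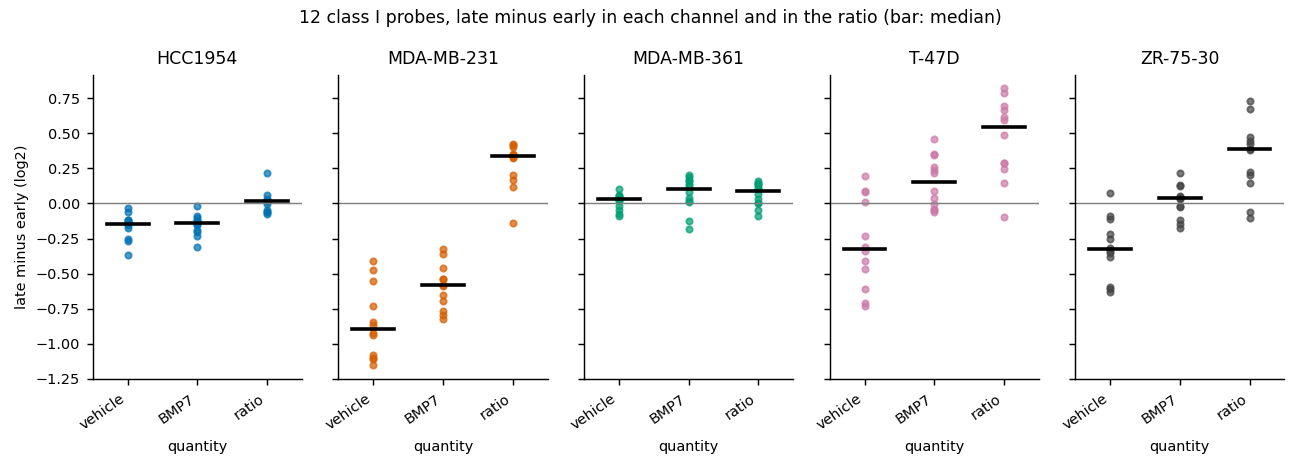
Late minus early change (vertical axis, log2) of the 12 class I probes in vehicle-treated cells, in BMP7-treated cells and in their ratio, for each cell line, with 1 point per probe and a bar at the median. In MDA-MB-231 both channels lay below 0 (medians -0.90 and -0.59), in T-47D and ZR-75-30 the vehicle median was -0.33 and the BMP7 median above 0.

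Further genes of antigen presentation were counted in the same tests, 52 in all, each of which had a probe. Over the 5 lines, 2 rose from early to late and 2 fell, where 2.17% of all probes rose and 0.799% fell. Among those that rose was MICA, a stress-induced ligand of natural killer cells, by 0.37 (SE 0.07, limma adjusted p = 0.0234). PSMB10, a subunit of the immunoproteasome, fell by 0.27 (SE 0.06, limma adjusted p = 0.0244) and RFXAP, part of the RFX complex at MHC promoters, fell by 0.58 (SE 0.14, limma adjusted p = 0.0355). In T-47D 2 rose and 3 fell. The 3 genes named passed there in the same directions, and IRF2, an interferon regulatory factor, fell by 0.90 (SE 0.23, limma adjusted p = 0.0471). Of the 9 genes of peptide loading onto class I, such as TAP1 and TAPBP, 0 passed over the lines, and 0 of the 52 passed in the other 4 lines or in the mean ratio over 5 lines (limma).

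In vehicle-treated cells, the presentation genes were also counted. Of the 52, 24 were higher and 11 lower in MDA-MB-231 (24.4% and 24.4% of all probes), and 24 higher and 7 lower in HCC1954 (19.1% and 33.3%). In T-47D 17 were higher and 14 lower, near the shares of all probes (36.2% and 20.7%). In MDA-MB-361 8 were higher and 23 lower (24.5% and 24.6% of all probes), and in ZR-75-30 10 and 23 (22% and 20%). In HCC1954, 13 of 16 other class II and class II loading genes were higher, where 19.1% of all probes were, and 2 were lower, HLA-DQA1 and HLA-DQA2, which encode alpha chains of HLA-DQ. Among the higher ones was HLA-DRB5, which encodes a beta chain of HLA-DR (2.76, SE 0.20, limma adjusted p = 1.09e-12). In MDA-MB-231 HLA-DRB5 was lower (-2.88, SE 0.20, limma adjusted p = 2.60e-13). CTSS, a protease that cuts the invariant chain, was at 8.46 ± 0.43 (SD, n = 6) in HCC1954 and above background on 0 arrays of MDA-MB-361 and T-47D. HLA-DQA2 was at 9.65 ± 0.13 (SD, n = 6) in MDA-MB-361, and above background on 4 arrays of T-47D, 3 each of HCC1954 and MDA-MB-231 and 0 of ZR-75-30. 

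The genes most like the members were sought by the correlation with the centred class mean over 30 arrays. For the ratios of class I, MICA (0.92) was among the 3 highest of 21926 probes above background in both channels on at least 20 arrays. For the vehicle levels of class I, PORCN (0.96) and ADPRHL2 (0.95) were among the 3 highest of 22307 probes. For the class II vehicle levels these were EXTL3 (0.90), RAC2 (0.90) and TRIM21 (0.90), and for the class II ratios SPECC1L (0.75) and MARCH2 (0.71). Of the members behind the class II mean, HLA-DRA, HLA-DPA1 and CD74 were above background in both channels on 9, 11 and 5 arrays. They would not pass the filter set for the searched probes, so the class II mean holds many values near background. The 30 arrays are 6 time points of 5 lines, and they share slides and normalization, so these correlations are a description.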

How the data were processed

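The 30 deposited scanner files hold, per the file headers, log10 ratios and intensities of both channels made by the Feature Extraction software (version 9.5.1.1), background-corrected and dye-normalized by linear and lowess steps, with surrogates for dim signals. The intensity values deposited by the authors for the vehicle channel (Cy3) gave the vehicle levels. A table of log2 ratios centred on each array was also deposited by the authors and served as an alternative. The flags for signals well above background and for outlier spots, also in these files, were used as filters.

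Log10 ratios were changed to log2, control and outlier-marked spots were left out, and spots of a probe were averaged. Vehicle signals were set to a common 75th percentile. Tests used limma (version 3.58.1, R version 4.3.3) with Benjamini-Hochberg adjustment over all probes and a threshold of 0.05. The late-against-early fit used 15 groups of 2 arrays (cell line by period), so the 2 time points of a period stood in for replicates. All named probes were those of the 9 genes, the 52 presentation genes, the marker genes and up to 3 most correlated genes. Values of some listed genes are not reported here. The members and lists were chosen with earlier results of these data known. On simulated late-against-early data of 37950 probes, 182 of 200 log2 changes of 1 were recovered with 5 false calls, and 117 of 200 changes of 0.5 with 17. The simulated noise was independent between arrays and each change equal in every line, without scan batch or slide effects. These counts therefore cannot tell how many calls in the real data are false. Signal over background and the number of arrays limit the precision. The alternatives were other background corrections and normalizations, dim-spot filters, kept outlier spots, left-out lines, time points or arrays, scan batch, slide and other groupings.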

Additional observations from a re-analysis of the deposited data

Results flagged for a closer look

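In 4 of 45 groups of 6 vehicle arrays (9 genes in 5 lines), the highest value stood apart from the rest of its group, where chance flags about 1 in 20 groups. HLA-E in MDA-MB-231 was at 16.02 at 6 h, with the next value at 14.32, and B2M at 16.81 on the same array, with the next at 15.08. That array was among those least like the other arrays of their line and was scanned in the later batch. HLA-DMA in HCC1954 was at 8.44 at 1 h, with the next at 7.20. CD74 in HCC1954 was at 2.79 at 12 h, with the next at 2.22, not well above background on any of the 6 arrays.

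For 5 probes the log2 ratio had opposite signs on all 6 arrays of lines compared. HLA-C (A_23_P113716) had a mean of 0.066 in MDA-MB-361 and -0.11 in ZR-75-30, HLA-C (A_23_P70539) 0.22 in MDA-MB-361 and -0.37 in HCC1954, and HLA-E (A_23_P30848) 0.29 in MDA-MB-361 and -0.31 in HCC1954. HLA-C (A_24_P298409) had 0.19 in the lines above 0 (HCC1954, MDA-MB-231 and T-47D) and -0.12 in ZR-75-30, and HLA-DMA (A_24_P50245) 0.087 in MDA-MB-231 and -0.20 in T-47D. These differences in the level of the ratio were not tested. The share of all probes with such a pattern is not given here, so the pattern cannot be called particular to the members.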

How the results depend on the processing

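Events of the members numbered 3, and 0 after normexp and loess, 36 with median scaling, 5 with the series matrix values, 0 in spots above background in both channels, 1 at 3-fold, and 1 without MDA-MB-231 at 6 h and T-47D at 3 h and 24 h, arrays left out after seeing the data. The mean ratio over 5 lines passed for 8 members with median scaling in place of 0. For events and for the mean ratio, the shares of all probes with median scaling are not given here. The late-against-early change passed for 5 members, and for 0 with median scaling, with scan batch as a term, with 1 difference per line, with 30 min against 3 to 24 h, and in the largest scan batch alone, where 0, 78, 0, 38 and 4 of all probes rose. Leaving out a cell line gave 0 to 6 members (0 without MDA-MB-231, T-47D or ZR-75-30, 3 without MDA-MB-361). With median scaling the change reversed for HLA-B (-0.13), HLA-C (A_23_P95917, -0.057), HLA-E (-0.0091), HLA-F (-0.13) and the class I median (-0.13), which otherwise lay at 0.17 to 0.32 when a line was left out. By line, that median with median scaling was below 0 in HCC1954 (-1.18) and above 0 in the other 4 lines. In single lines 3 members passed, and 5 after loess, with spots above background in both channels or without ZR-75-30 at 6 h (an array also left out after seeing the data), 6 with scan batch as a term and 0 with median scaling or without the 3 arrays named. The cause was not tested. The differences between lines in ratio (0) and in vehicle level (18), and the vehicle change with time (0), kept their counts within 1.5 times under all alternatives run. Of 31 called vehicle levels recomputed 360 times, 34 values no longer passed and 0 reversed, all of HLA-DPA1 in HCC1954, T-47D and ZR-75-30, HLA-B and HLA-F in MDA-MB-361 and HLA-F in T-47D. No pairing by replicate number was possible, because the arrays carry none. Late and early arrays were paired within cell line, as in the fit with 1 difference per line, and BMP7 was paired with vehicle on each array.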
